A study of Mus musculus with 4 samples.

Results

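The clustered protocadherins are cadherin-type cell adhesion proteins encoded in 3 neighbouring gene clusters, alpha, beta and gamma, on mouse chromosome 18. Their members were taken as all rows of the 3 deposited m6A peak tables whose gene name is Pcdha, Pcdhac, Pcdhb, Pcdhga, Pcdhgb or Pcdhgc followed by a number. This gave 260 of 34406 rows in the sham peak list, 236 of 33556 rows in the CCI peak list and 54 of 4812 rows in the table of differential peaks, under 31 gene names. Rows that shared exonic bases were merged, since isoforms of the alpha and gamma clusters share their last exons. The 550 rows became 158 loci. Merging the rows of every name gave 35656 loci for the whole series, so the 158 are not strictly a subset of them. A locus is a stretch of exonic sequence covered by 1 or more peaks, and it was counted as present in a list when a row of any name in that list covered at least 1 of its bases. The rule itself asks for a called peak, so that a peak is there is no finding.

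In MeRIP-seq, fragmented poly(A) RNA is pulled down with an antibody against N6-methyladenosine (m6A), and this IP library is set against an input library of RNA that was not pulled down. Spinal cord was taken on day 7 from C57BL/6J mice, 6 to 8 weeks old, after either chronic constriction injury (CCI), where silk thread is tied loosely around the sciatic nerve, or a sham operation with no ligature. Each group had 1 IP and 1 input library, and the number of mice behind a library is not given in the sources used here. No test between CCI and sham was possible, no p-value between them is given, and each difference below compares these libraries and had no replicate check. Each peak carries the authors' fold enrichment, the ratio of IP over input. The files hold no read counts, so the depth is unknown and no error could be put on a fold enrichment. Of marker genes, all 7 neuronal, 5 astrocytic, 5 oligodendrocytic and 5 microglial genes had a peak in both lists, as did 4 of the 5 Hox genes of the lumbar level. Of the peripheral nerve and ganglion genes, 3 of 5 had a peak in both lists. The share of all genes with a peak in both lists was not computed, so these counts have no background.

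In the alpha and gamma clusters, each isoform begins with its own large variable exon, which encodes the whole extracellular part, the membrane span and the start of the cytoplasmic tail, and this exon is spliced to 3 small constant exons used by every isoform of that cluster. The beta genes lack constant exons, and each is in essence a single coding exon. A neuron uses a few of the many first exons, selected through promoters bound by CTCF and cohesin, and the combination at its surface serves in self-recognition of its own branches. The C-type isoforms (Pcdhac1, Pcdhac2, Pcdhgc3, Pcdhgc4 and Pcdhgc5) sit at the downstream ends of the alpha and gamma clusters and are used more broadly. In the spinal cord the gamma cluster is known for its role in the survival of interneurons.

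Of the 158 loci, 40 lay in alpha first exons, 70 in beta genes and 41 in gamma first exons, and 6 lay over the shared last exons. The remaining 1, at 37177894 to 37178163, lay between shared exons of the alpha cluster and was annotated to another gene. Each first-exon locus was given to the gene whose start in RefSeq (GRCm38.p6, the same build as the tables) lay nearest upstream, since the names in the tables did not follow the isoforms. The table name was the gene at that position in 70 of 70 beta loci, in 17 of 41 gamma loci and in 9 of 40 alpha loci (22.5%, 95% Wilson interval 12.3 to 37.5%, counting error only). The 40 alpha loci carried 3 names between them, whereas they lay over all 14 alpha genes. By name, 31 of the 58 clustered protocadherin genes of RefSeq had a peak (53.4%), and by position 49 of 58 had one (84.5%, 73.1 to 91.6%). A further 35 loci over first exons carried only names outside the family, such as Gm37013 over Pcdhga1, Pcdhga2, Pcdhga3 and Pcdhgb1 and Gm26672 from Pcdhga10 to Pcdhga12. With these, 57 of 58 genes had a peak over their first exon (98.3%, 90.9 to 99.7%). The remaining gene was Pcdhb1, the first gene of the beta cluster, which had no row in either list.

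**Figure D1:**
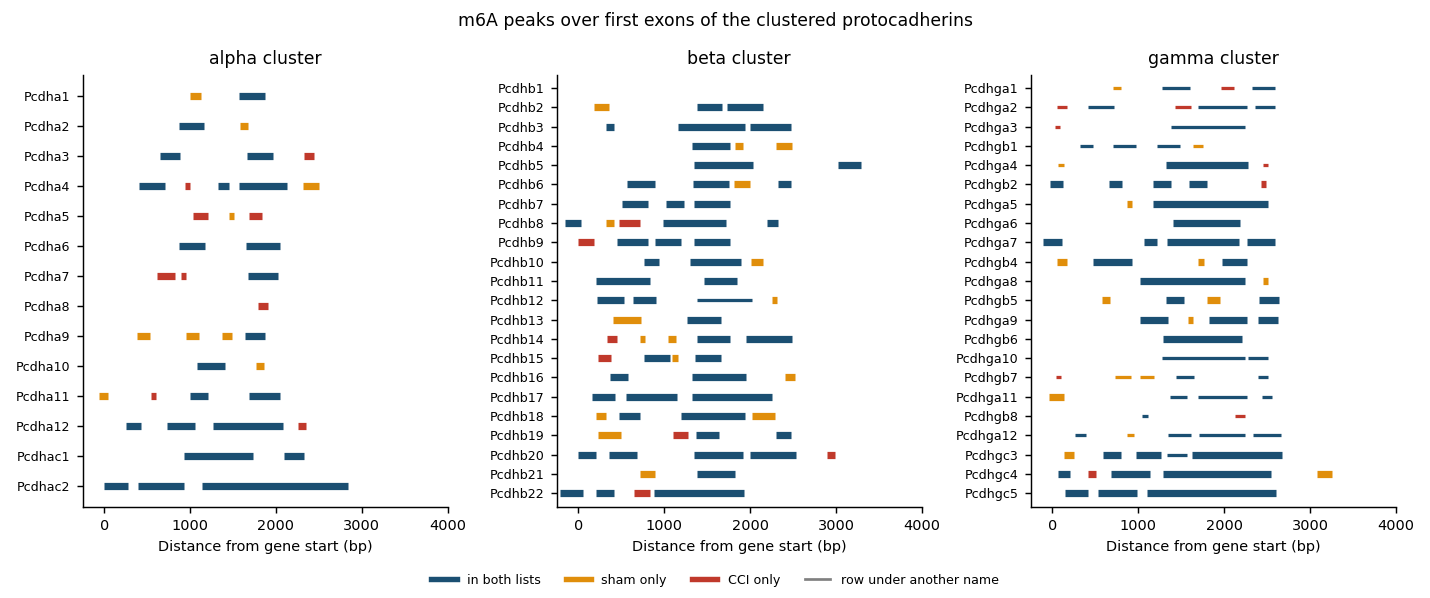
m6A peaks along the first exon of each clustered protocadherin gene, with distance from the gene start in bp on the x axis and 1 line per gene in genome order. Bars are merged loci, coloured by the list they were found in, and thin bars are loci whose rows carry a name outside the family; the 21 beta genes with peaks share a covered stretch about 1500 bp from their start, and Pcdhb1 has no bar.

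Peaks sat at a recurring place along the first exon. At 1500 bp from the gene start, a peak covered 21 of 21 beta genes that had any (100%, 95% Wilson interval 84.5 to 100%) and 17 of 22 gamma genes (77.3%, 56.6 to 89.9%). Only 4 of 14 alpha genes had a peak there (28.6%, 11.7 to 54.6%), and the alpha genes were covered most often at 1800 bp, in 12 of 14 (85.7%, 60.1 to 96.0%). Gamma genes had a further crest near the end of the first exon, where 63.6% of them were covered at 2450 bp and 68.2% at 2500 bp. The beta genes were covered in 33.3% at 2450 bp and 9.52% at 2500 bp, and the alpha genes in 14.3% and 7.14%. In 264 other genes of 2000 to 6000 bp with a peak annotated in a single-exon transcript, the best covered distance was 850 bp, where 67 genes had a peak (25.4%, 20.5 to 31.0%), and 17.8% were covered at 1500 bp. The genes of a cluster are related in sequence and are not independent of each other, so these shares describe the clusters and were not tested. Reads that map to several of these related exons could be placed in more than 1 gene, and how the authors treated them is not given in the sources used here.

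**Figure D2:**
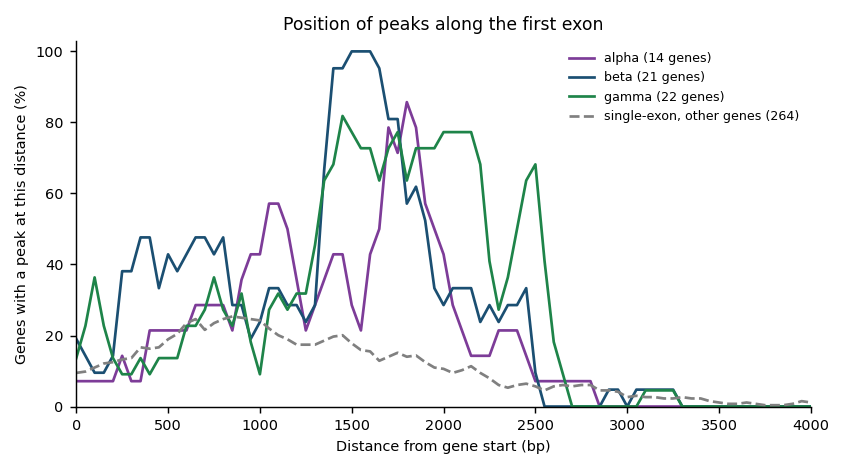
Share of genes (%) with a peak in either list at each distance from the gene start, in bp, for the genes of each cluster with a peak and for 264 other genes with a peak in a single-exon transcript. The beta curve reaches 100% at 1500 bp, the alpha curve 85.7% at 1800 bp, and the curve of the other genes stays at or below 25.4%.

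The leading peak of a gene was defined as the first-exon locus with the lowest p-value of IP against input in either list. In the beta genes it began at a median of 1345 bp from the gene start, from 885 to 1463 bp. The alpha genes had leading peaks that began at 646 to 1793 bp and the gamma genes at 472 to 2402 bp. Fold enrichment of the leading peak was higher in the beta genes, with a median of 23.6 in sham and 24.9 in CCI, than in the alpha genes (10.5 and 12.1) and the gamma genes (7.90 and 9.66). The leading peak also had the highest sham fold enrichment of its gene in 20 of the 21 beta genes, 17 of the 22 gamma genes and 6 of the 14 alpha genes. In bulk tissue, fewer cells that use an isoform and less RNA per cell cannot be told apart, and the fold enrichment is a ratio and not an amount of RNA.

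The strongest loci of the family by sham fold enrichment were beta peaks. Pcdhb6 reached 53.8 in sham and 27.8 in CCI (chromosome 18, 37335199 to 37335616, GRCm38), Pcdhb21 53.5 and 29.9 (37515029 to 37515479), Pcdhb20 48.4 and 37.3 (37505609 to 37506178) and Pcdhb3 48.1 and 25.5 (37301962 to 37302737). All 4 were lower in CCI, which a choice by the sham value favours. The highest CCI value lay in Pcdhb4, at 77.7 against 34.1 in sham (37308774 to 37309224). The authors annotated these peaks in the only exon of their transcripts.

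In the alpha cluster, the first-exon loci with the highest sham fold enrichment lay in Pcdha10 (22.1 in sham, 13.6 in CCI, 37006400 to 37006730) and Pcdha12 (18.9 and 21.1, 37021497 to 37022307). A peak of Pcdha1 at 36931290 to 36931410 had a sham fold enrichment of 15.1 and no row in CCI, and a second Pcdha1 peak at 36931858 to 36932157 had 13.9 in sham and 16.2 in CCI. Pcdha9 tied with it at 13.9 in sham, in a peak with no row in CCI (36998268 to 36998417). The Pcdha12 peak was the best supported of these, with log10 p-values of -37.3 in sham and -30.2 in CCI, while the Pcdha10 peak had -6.21 and -3.73. Fold enrichment alone thus did not order the alpha loci by the strength of their calls.

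In the gamma cluster, Pcdhga7 held the highest first-exon locus, at 28.5 in sham and 12.8 in CCI (37716173 to 37717012). Pcdhga4 followed with 21.9 in sham and 19.3 in CCI (37686556 to 37687513). A locus over the start of Pcdhga7, from 37714727 to 37714944 and annotated in the 5′-UTR, had 21.1 in sham and 6.21 in CCI. The fourth was a weakly supported locus of Pcdhgc4 at 37815139 to 37815288, with 16.3 and 12 and log10 p-values of -3.76 and -3.23. Outside the naming rule, the leading peak of Pcdhga2, carried under the name Gm37013, had 21.8 in sham and 23.2 in CCI.

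**Figure D3:**
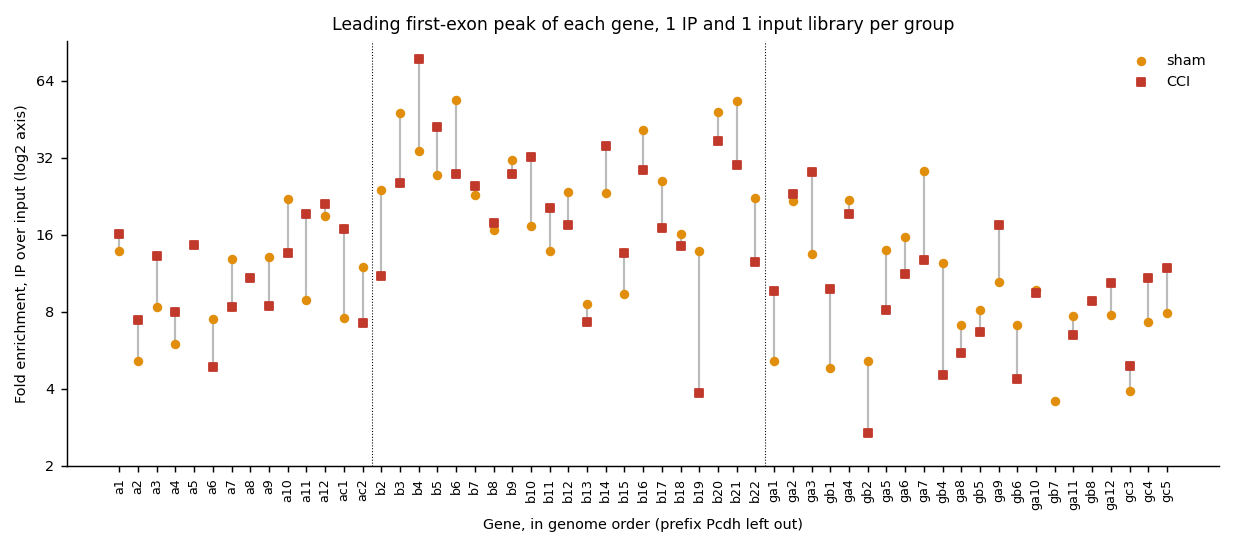
Fold enrichment (IP over input, log2 axis) of the leading first-exon peak of each gene in genome order, with circles for sham, squares for CCI and a line joining them. The beta genes lie highest, up to 53.8 in sham (Pcdhb6) and 77.7 in CCI (Pcdhb4), and circles and squares change places from gene to gene.

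The C-type genes carried 17 first-exon loci, of which 14 were in both lists. Pcdhac1 had a leading peak from 37091061 to 37091869 at a median of 7.58 in sham against 16.9 in CCI, a log2 ratio of 1.16. By these medians it was the only C-type locus with a 2-fold difference. The sham median was over 2 rows, of 3.17 and 12, while CCI had 1 row, so the difference rests on how the sham rows were combined. Weighted by exonic length, the sham mean was 10.5. The other locus of Pcdhac1, at 37092228 to 37092468, had 9.68 and 11.1. Pcdhac2 was covered by 3 loci over most of its first exon, with 7.08 and 7.77 at its start (37143682 to 37143951), 4.72 and 4.64 next to it (37144071 to 37144609), and 12 and 7.22 in the leading peak (37144818 to 37146521). The sham value of that leading peak came from 1 row of 4 exonic blocks named Gm10544, which also spanned the shared exons, whereas CCI had 2 rows within the first exon, so that the 2 values are not over the same bases.

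The gamma C-type genes each had a leading peak in both lists. Pcdhgc3 had 3.94 in sham and 4.93 in CCI in its leading peak (37808037 to 37809083), where the sham row carried a member name and the only CCI row was named BC037039. Its other loci in both lists had 2.69 and 3.10 (37806999 to 37807207) and 3.95 and 3.54 (37807380 to 37807679). A locus of Pcdhgc3 at 37806543 to 37806663 was in sham only, at 1.48. The transcript BC037039 lies on the other strand of Pcdhgc3, and whether the authors used strand in calling peaks is not given in the sources used here, so reads of this pair may be mixed. Pcdhgc4 had a leading peak of 7.28 in sham and 10.9 in CCI (37816366 to 37817622) and a weaker one of 2.82 and 4.45 (37815767 to 37816216). It also had 1 locus in CCI only, at 2.24 (37815498 to 37815588), and 1 in sham only, at 13.9 (37818161 to 37818340). Pcdhgc5 had 7.90 and 11.9 in its leading peak (37820649 to 37822145), 4.69 and 3.52 near its start (37819692 to 37819962) and 5.28 and 6.72 between them (37820081 to 37820530). Each value of its leading peak was a median over 2 rows, of 3.20 and 12.6 in sham and of 4.04 and 19.8 in CCI. The leading peaks of Pcdhgc4 and Pcdhgc5 had log2 ratios of 0.58 and 0.59, and that of Pcdhgc3, with rows of different names in the lists, 0.32, all under 2-fold.

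The shared last exons had 6 loci, all in both lists and none with a 2-fold difference between the medians of their rows. In the tables these loci are repeated once for each isoform model, and 104 of the 260 sham member rows (40.0%) and 89 of the 236 CCI member rows (37.7%) lay over them. Such rows are copies of the same signal and not separate peaks. A peak over a shared exon cannot be given to any isoform.

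In the alpha cluster, the locus from 37184959 to 37185322, annotated in the 3′-UTR, was at 8.68 in sham and 8.44 in CCI. All 14 sham rows over it carried names outside the family, and 8 of the 14 CCI rows carried a member name, so that by name alone it would be listed in CCI only. Of these rows, 13 in sham and 5 in CCI were spliced and also covered bases of a locus at 37159291 to 37159501. The values there, 8.67 and 8.48, came mostly from those rows and so were close. Only 1 row lay wholly within that locus, a sham row named Pcdha11 at 3.49. The 5 CCI rows reached the locus only at 37159343 to 37159353, so it had no CCI peak of its own. In both lists the rows with a name outside the family were given to Gm10544. The sham row of 4 blocks joined the first exon of Pcdhac2 with exonic pieces of 59, 89 and 381 bases, the structure of an alpha transcript with its constant exons, and it had a fold enrichment of 12. The last alpha locus, further into the 3′-UTR (37185708 to 37185859), had rows of 1.88 to 2.00 in sham and 2.39 to 2.52 in CCI, 14 in each list, with a log2 ratio of medians of 0.31. The rows of the 2 lists did not overlap in value there, but the rows of a list are the same reads under several gene models, so this gap says nothing of the error.

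In the gamma cluster, the locus at the transcript end (37841451 to 37841873, 3′-UTR) was the strongest shared one. Its 22 CCI rows ran over the whole stretch with 11.1 to 11.5. In sham the same stretch was called as separate peaks, 22 rows in the downstream part with 7.75 to 7.87 and 21 rows in the upstream part with 1.22 to 1.29. The log2 ratio of the medians, 11.1 in CCI and 7.75 in sham, was 0.52. The sham median was over all 43 rows and took the downstream value because that part had 22 rows against 21. Weighted by exonic length, the means were 11.2 in CCI and 6.09 in sham. The other shared gamma loci were weak, with 1.67 in sham and 1.65 in CCI at 37840109 to 37840322 and 1.52 and 1.92 at 37840402 to 37840561. The shared loci thus ranged from 1.52 to 8.68 in sham and from 1.65 to 11.1 in CCI.

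**Figure D4:**
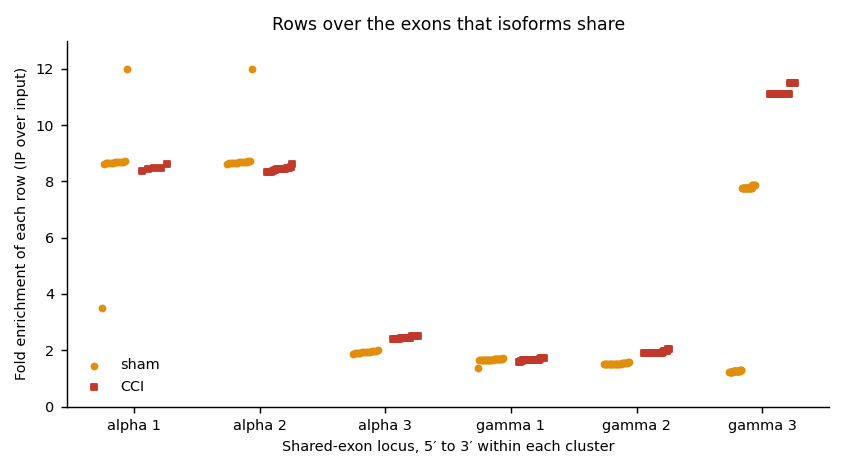
Fold enrichment (IP over input) of every row over the 6 shared-exon loci, from the 5′ to the 3′ end of each cluster, with circles for sham and squares for CCI. Points of 1 peak in a list are isoform models of the same reads. The last gamma locus holds CCI rows of 11.1 to 11.5 and sham rows of 2 separate peaks, at 7.75 to 7.87 and at 1.22 to 1.29. Sham points of the first alpha locus mix a row within it at 3.49, spliced rows that also cover the second alpha locus, and the row of 4 blocks at 12.

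For the comparison of CCI with sham, 105 of the 158 loci were present in both lists (66.5%, 95% Wilson interval 58.8 to 73.3%), 35 in sham only and 18 in CCI only. Over all loci of the series, 73.8% were in both. The share followed the strength of the call, as 74 of 74 loci with a p-value of 1e-10 or less in a list were in both, against 31 of 84 weaker ones (36.9%, 27.4 to 47.6%). The same shares over all loci were 96.6% and 38.3%. Loci found in 1 list were thus all weakly called, and none is read here as gained or lost. By cluster, 22 of 40 alpha first-exon loci, 47 of 70 beta loci and 29 of 41 gamma first-exon loci were in both lists.

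The fold enrichment of the loci in both lists differed little in its centre. The log2 ratio of CCI over sham had a median of 0.14 (quartiles -0.47 and 0.56), with 57 loci higher and 48 lower, and over all 26326 loci in both lists it was 0.02 (quartiles -0.38 and 0.44). By cluster the median was 0.18 for alpha first exons, 0.11 for the beta genes and -0.08 for gamma first exons. Of the leading peaks in both lists, 24 were higher in CCI and 29 lower, with a median of -0.18. In Pcdhb17 and Pcdhga8 the sign depended on how unlike rows were combined. By medians both were lower in CCI. By the mean weighted by exonic length, Pcdhb17 had 26.1 in sham and 27.3 in CCI, and Pcdhga8 9.87 and 12.3. Loci with a p-value of 1e-10 or less had a median of -0.03, and the weaker ones 0.31, so the sign of the centre depended on which loci were counted.

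A difference of at least 2-fold was found in 22 of the 105 loci (21.0%), against 16.2% of all loci of the series. In CCI 12 were higher (11.4%, against 8.70% of all loci) and 10 lower (9.52%, against 7.54%). Among loci with a p-value of 1e-10 or less, 13 of 74 passed the fold (17.6%, against 15.5% of all such loci), and among the weaker ones 9 of 31 (29.0%, against 19.3%). In peaks of other genes annotated in single-exon transcripts, 25.3% of the 565 in both lists passed it, beside 23.4% of the beta loci. In the loci with a p-value of 1e-10 or less, the share past the 2-fold limit was thus near that of all such loci. In the beta loci it was near that of the single-exon peaks of other genes, but above the 16.2% of all loci. The shares of alpha first exons (22.7%) and gamma first exons (20.7%) were also above 16.2%. In the 31 weaker loci the share was further above its background, that of all weaker loci. At an absolute log2 ratio of at least 0.5, the count was 57 of 105, also above the background (54.3%, against 42.2% of all loci). None of these differences was tested.

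**Figure D5:**
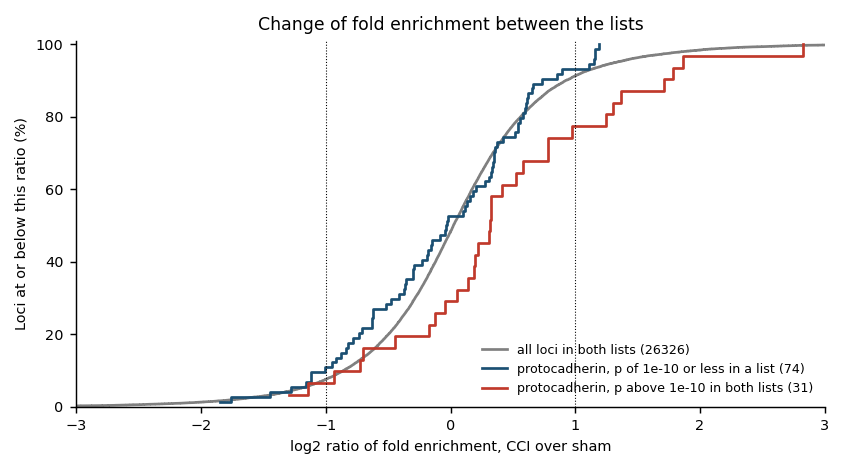
Cumulative share of loci (%) by log2 ratio of fold enrichment, CCI over sham, for all 26326 loci in both lists, for the 74 protocadherin loci with a p-value of 1e-10 or less in a list and for the 31 weaker ones. Dotted lines mark the 2-fold differences; the curve of the strong loci crosses 50% near 0, at a median of -0.03, and that of the weak loci lies to its right, at 0.31.

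The 4 loci with the largest rise had log10 p-values between -7.75 and -2.30 in sham and between -8.03 and -4.06 in CCI. The Pcdhb16 locus at 37478142 to 37478351 went from 3.68 in sham to 26.1 in CCI, a log2 ratio of 2.83, with log10 p-values of -2.97 and -7.83. It was followed by loci of Pcdhb6 (3.29 and 12, log2 ratio 1.87, 37336183 to 37336332), Pcdha12 (4.34 and 14.9, 1.78, 37020958 to 37021288) and Pcdhb22 (2.86 and 9.38, 1.71, 37518559 to 37518768). In Pcdhb16, Pcdhb6 and Pcdha12 these were side peaks, and the leading peaks of the same genes had log2 ratios of -0.52, -0.95 and 0.16. The leading peak of Pcdhb22 had a log2 ratio of -0.82. The 4 loci were chosen by their ratio, which favours a lower ratio in the leading peaks of these genes.

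The other higher loci were at a log2 ratio of 1.11 to 1.37. They lay in Pcdhb2 (37296577 to 37296996, 6.28 in sham and 16.2 in CCI), Pcdhgb2 (37689828 to 37689978, 4.42 and 10.9), Pcdhgb5 (37732296 to 37732505, 4.75 and 11.3), Pcdhb4 and Pcdhac1 (the leading peaks given above), Pcdhb5 (37323406 to 37323675, 15.9 and 35.4), Pcdhb9 (37401304 to 37401663, 7.02 and 15.6) and Pcdha11 (37012549 to 37012908, 8.91 and 19.2). Of these, the Pcdhb9 locus was the best supported, with log10 p-values of -28.2 and -36.7. The Pcdhb2 locus had -5.03 and -4.57, and the Pcdhgb2 locus -2.99 and -2.9. The fold enrichment and p-value of the Pcdhb2 locus equalled those of a Pcdhgb5 peak in sham and of a Pcdha1 peak in CCI. In CCI the Pcdhgb2 values equalled those of peaks in Pcdha5 and Pcdha8.

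The 4 largest falls came next. The leading peak of Pcdhb19 fell from 13.9 in sham to 3.87 in CCI, a log2 ratio of -1.84 (37498370 to 37498640), and the 5′-UTR locus of Pcdhga7 from 21.1 to 6.21, a log2 ratio of -1.76. The leading peak of Pcdhgb4 had 12.4 and 4.55 (-1.45, 37720848 to 37721298), and a locus of Pcdha11 had 8.43 and 3.43 (-1.30, 37011861 to 37012070). The log10 p-values in sham and CCI were -14.5 and -4.06 for the Pcdhb19 peak and -15.7 and -7.45 for the Pcdhga7 locus. They were -14.9 and -10.6 for the Pcdhgb4 peak and -3.97 and -2.37 for the Pcdha11 locus. In Pcdhga7, the leading peak was lower as well, with a log2 ratio of -1.16 and log10 p-values of -111 in sham and -61.6 in CCI, while its most downstream peak, from 37717102 to 37717432, was higher, at 4.26 and 6.47. In Pcdha11, a fall of 1 locus stood beside the rise of the leading peak.

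The remaining lower loci had log2 ratios between -1.28 and -1.01. They were in Pcdhga9 (37738758 to 37739206, 12.1 in sham and 5.00 in CCI), Pcdhb17 (37485183 to 37485452, 5.11 and 2.31), Pcdhb18 (37489942 to 37490181, 5.16 and 2.37), Pcdhb2 (37296218 to 37296517, 23.9 and 11.1) and Pcdha4 (36953098 to 36953395, 6.66 and 3.31). The leading peak of Pcdhb2 was lower while the peak next to it was higher. The loci nearest to the 2-fold limit were Pcdha4 just inside it, at -1.01, and another Pcdha4 locus just outside it, at 0.97 (36954020 to 36954142). The differential table had rows of any name over 12 of the 158 loci (7.59%, against 12.6% of all loci), of which 5 were over shared exons. Of the loci past the 2-fold limit, only the Pcdhga9 locus had such a row.

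Many loci held values that recurred elsewhere in the tables. Of the loci outside the shared exons with a single row in a list, 68 of 110 in sham (61.8%) and 44 of 88 in CCI (50.0%) had a p-value and fold enrichment equal in every printed digit to those of a row of another gene in that list, against 27.2% and 26.3% of all rows. Among those with a p-value above 1e-05 the counts were 37 of 41 in sham (90.2%) and 22 of 30 in CCI (73.3%), against 68.2% and 63.3% of all such rows, and among the better supported ones 31 of 69 and 22 of 58.

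The genes around the family were described by counts. The share of all genes with a peak in both lists was not computed, so the counts of genes given here have no background. Of 16 regulators of first-exon choice and chromatin, 13 had a peak in both lists, among them Ctcf and the cohesin genes Rad21, Smc1a and Smc3, Stag1 had one in CCI only, and Smchd1 and Dnmt3b had none. Of their 61 loci, 49 were in both lists (80.3%, against 73.8% of all loci). These 49 had a median log2 ratio of -0.14, with 7 past the 2-fold limit (14.3%, against 16.2% of all loci). The largest was in Setdb1, a histone H3 lysine methyltransferase, at 32.5 in sham and 4.69 in CCI (chromosome 3, 95356836 to 95357307). All 21 partner and signalling genes had a peak in both lists. Of their 75 loci, 62 were in both lists (82.7%), and 11 of the 62 (17.7%) passed the limit. In Rac1, a small GTPase that acts on the actin cytoskeleton, both loci were higher in CCI, and the larger difference was 2.58 against 20.3 (chromosome 5, 143517469 to 143518066). Of 12 non-clustered protocadherins, 10 had a peak in both lists and Pcdh11x and Pcdh12 had one in sham only. Of their 60 loci, 44 were in both lists (73.3%), and 5 of the 44 passed the limit (11.4%). Their median fold enrichment over loci, 6.96 in sham and 6.72 in CCI, was close to that of the clustered genes in sham (7.09) and lower than that in CCI (8.34), a difference that no test bears on.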

How the data were processed

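MeRIP-seq libraries of mouse spinal cord (1 IP and 1 input per group) were deposited by the authors as a CCI peak list, a sham peak list and a table of differential peaks. The labels' processing notes name fastp, HISAT2, HOMER and ChIPseeker with the build GRCm38, while the paper's methods name Cutadapt, bowtie, MACS2 and ChIPseeker, and the column names are those of exomePeak. The authors computed the fold enrichment of each deposited peak as a ratio of IP over input. The log10 p-value and log10 false discovery rate of each peak, also the authors', were treated as a score. The differential table further holds the authors' own fold changes, p-values and false discovery rates of CCI against sham, which were not used.

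The members and gene lists were chosen with earlier results of these data known. Exonic blocks of member rows were joined where they shared at least 1 base. Fold enrichment of a locus in a list is the median over its rows of any name, and a 2-fold difference is an absolute log2 ratio of at least 1 of these medians. A locus was set at a gene by the RefSeq gene starts of GRCm38.p6, and was called a first-exon locus within 6000 bp of the start and in the beta cluster. Shared-exon loci lay further downstream with at least 10 rows in a list. This rule replaced one by gene names after the data were seen, since member rows over the shared exons of a cluster carry 1 name, Pcdha11 or Pcdhgc4. The loci named are all shared-exon and C-type loci, the 4 highest in sham per cluster, those with the 4 highest and 4 lowest ratios, all past the 2-fold limit, and genes without a row. The Pcdhga2, Pcdhga7 (most downstream) and Pcdha4 (log2 ratio 0.97) loci, Setdb1, Rac1 and Psen2 were named after their values were seen.

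With 1 library per group, no test was run. Shares carry 95% Wilson intervals, for counting error only, and the depth of each library is unknown. Merging, pairing and ratios were tested on simulated data. No sequence is printed, and 1 of the marker lists is not reported here. Alternatives covered the merging, the filters on fold enrichment and false discovery rate, the centring, the class rule and the names counted. The tables were read with pandas 2.3.3 in Python 3.11.15, intervals were made with scipy 1.17.1, medians with numpy 2.4.6 and plots with matplotlib 3.10.9.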

Additional observations from a re-analysis of the deposited data

How the results depend on the processing

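Of 54 values under alternative settings, 40 stayed close to the reported one (counts within 1.5 times, shares within their Wilson interval, medians within 0.1 on the log2 scale) and 14 moved. Shared-exon loci numbered 0 in alpha and 0 in gamma by 2 or more member names, and 7 and 13 by annotated exon or UTR, instead of 3 and 3. Joining rows of every name left 1 shared alpha locus, a fold enrichment of at least 2 left 1 shared gamma locus, and rows of other names raised the gamma first-exon loci from 41 to 75. The share of loci in both lists fell from 66.46% to 53.16% when partners had to share 50% of both rows. The median log2 ratio went from 0.14 to -0.0287 over loci with a p-value of 1e-10 or less, and its other values lay between 0.1160 and 0.1975. The count past the fold was 57 at a log2 ratio of 0.5, and 22, 23 and 27 when centred, by the highest row or with rows of other names. The share of genes with a peak was 84.48% by position and 98.28% with rows of any name, against 53.45% by name. Without merging, the median fold enrichment was 4.73 in sham and 6.345 in CCI, against 7.09 and 8.34, since rows over shared exons are repeated per isoform. The positional rule for shared exons, the rows of other names, the p-value limit, the joining by every name and the highest row for the count past the fold were chosen after seeing the data. No paired analysis was possible because only 1 library of each kind was made per group. The unknown depth and the absence of replicates limit every ratio of CCI to sham.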
